A study of Eonycteris spelaea and Mus musculus with 51 samples.

Results

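The response of the cave nectar bat, Eonycteris spelaea, to recovery from heat shock was compared between muscle and lung. The comparison asked which genes changed by a different amount in muscle than in lung by the end of recovery, and which changed alike in both. It rests on 12 of the 51 libraries of the series, 3 each of lung control, lung recovery, muscle control and muscle recovery. Control bats were untreated and taken at baseline, and recovery bats were taken 4 h after a heat shock of 1 h given to the living animal. The 3 lung and 3 muscle libraries made straight after the heat shock are given beside the named rows as a description only. No strain, age or genetic change is given in the labels, and the labels do not name the muscle sampled. No unheated bats were taken at the later time, so the effect of heat cannot be told apart from that of handling or elapsed time.

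Of the 30017 rows of the bat count table, each a gene or transcript, 15048 held enough reads in both tissues and were tested. A change is the log2 ratio of recovery to control, and the tissue difference is the muscle change minus the lung change. A row is called where the quasi-likelihood test of edgeR gave an adjusted p (Benjamini-Hochberg, over all 15048 rows) under 0.05, and only called rows are said to have risen or fallen. Most tested rows (12557) carry human Ensembl gene identifiers, which the files do not pair with gene names, so the largest changes are given by identifier and by the row's pattern. A further 2288 are numbered non-coding RNAs, 103 are antisense rows, 80 carry mouse identifiers and 20 other names. Of 817 symbols in 35 lists of stress, immune, metabolic and cell type genes, 0 matched a mouse identifier and 1 matched a row name, so no list could be counted and the marker lists could not be applied to the tissue labels.

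Heat unfolds proteins in the cell, and the released heat shock transcription factor then raises the transcription of chaperone genes, whose products bind and refold those proteins. The response is self-limiting: as unfolded proteins are cleared the factor is bound again and the induced messages decay. Muscle of the body wall and limbs consists mainly of contractile fibres that are themselves a source of body heat, whereas lung is a mixture of gas-exchange epithelium, endothelium, connective tissue and resident immune cells. In such whole-tissue RNA, fewer cells of a type and less RNA per cell cannot be told apart.

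Total counts were 9.29 to 21.7 M per lung library and 24.7 to 33.3 M per muscle library, lowest in lung control 3. Lung control 3 also stood apart in content. Among 11751 rows with a mean of at least 5 CPM (read counts scaled to a common library size), 431 were at least 4-fold higher there than in both other lung controls, against 0 to 18 such rows in each of the other 17 lung and muscle libraries. Counts of called rows, and the named rows whose values it moved, are therefore also given without that library. The condition labels could not be checked against an independent measure, and every direction from control to recovery rests on them. One check of the tissue labels, chosen after its values were seen, was the mouse-identifier row Cox8b, whose product is the muscle-type subunit of cytochrome c oxidase. Its level was 155 to 423.8 CPM in the 9 muscle libraries and 2.51 to 15.7 CPM in the 9 lung libraries, with the highest lung value in lung control 3.

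The recovery change differed between muscle and lung in 20 rows, 0.133% of those tested. In 13 rows (0.0864%) the muscle change lay above the lung change and in 7 (0.0465%) below it, and 2406 rows had an unadjusted p under 0.05. Scaling by relative log expression gave 13 above and 4 below, and scaling within each tissue gave 12 above and 3 below. Of the 20 rows, 19 carried human identifiers and 1 was a numbered non-coding RNA, classes of 12557 and 2288 tested rows. The last row called had an adjusted p of 0.0439 with a difference of -1.59, and the first row not called had 0.0604 with a difference of -1.45. Without lung control 3 all 20 rows were still called, and 73 rows were called in all, 41 above and 32 below. Without lung recovery 1 or without lung recovery 3 none was called, with smallest adjusted p of 0.0552 and 0.0564 by the same test and 2022 and 1814 rows at an unadjusted p under 0.05. The count also fell to 9 without lung control 2, 8 without lung recovery 2, 12 without muscle control 2, 7 without muscle recovery 1 and 6 without muscle recovery 3. DESeq2 called 605 rows, the 20 among them, with 290 above and 315 below, and limma-voom called 47 above and 75 below, so the lean towards positive differences did not hold in those tools. Treating lung and muscle libraries of equal number as 1 animal, which the labels do not state, left 0 rows called (smallest adjusted p 0.0658, edgeR). None of the rows named below was thus called for the tissue difference in that fit, which did not test the change within each tissue.

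**Figure D1:**
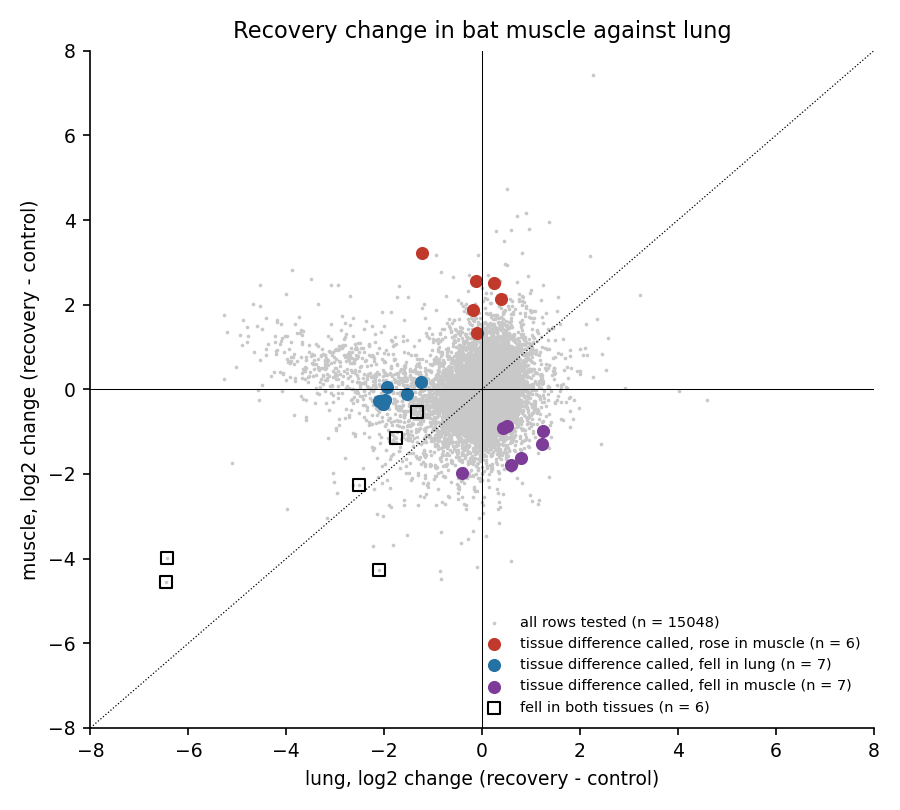
Log2 change from control to recovery in lung (horizontal axis) against muscle (vertical axis) for each of the 15048 rows tested, with the 20 rows called for the tissue difference coloured by pattern and the 6 rows that fell in both tissues as open squares. The coloured rows lie off the dotted line of equal change, mostly near 0 in one of the tissues; the grey rows at the left are described in the text on lung control 3.

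The 20 rows fell into 3 patterns. In 6 rows the level rose in muscle while the lung change was not called. Their muscle changes ran from 1.33 to 3.22 (median 2.33) and their lung changes from -1.23 to 0.38 (median -0.11). In another 7 rows the level fell in lung while the muscle change was not called, with lung changes of -2.11 to -1.25 (median -1.99) and muscle changes of -0.35 to 0.18 (median -0.26). In the last 7 rows the level fell in muscle while the lung change was not called. There the muscle changes were -1.99 to -0.86 (median -1.29), and the lung changes ran from -0.40 to 1.24 (median 0.59), above 0 in 6 of 7 rows (54.0% of all rows tested). Choosing rows by a negative tissue difference favours positive lung changes, so nothing is read from the 6 of 7.

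These patterns also describe how the libraries lay. In the 6 rows that rose in muscle, the muscle recovery libraries all lay above the muscle controls in 6 of 6 rows, an arrangement found in 13.6% of all rows tested. In the 7 rows that fell in lung, the lung recovery libraries all lay below the lung controls in 7 of 7 rows (9.24% of all rows). The muscle recovery libraries lay below the controls in 7 of 7 rows that fell in muscle (13.1% of all rows). Since these tests called the rows, nothing further is read from these counts.

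**Figure D2:**
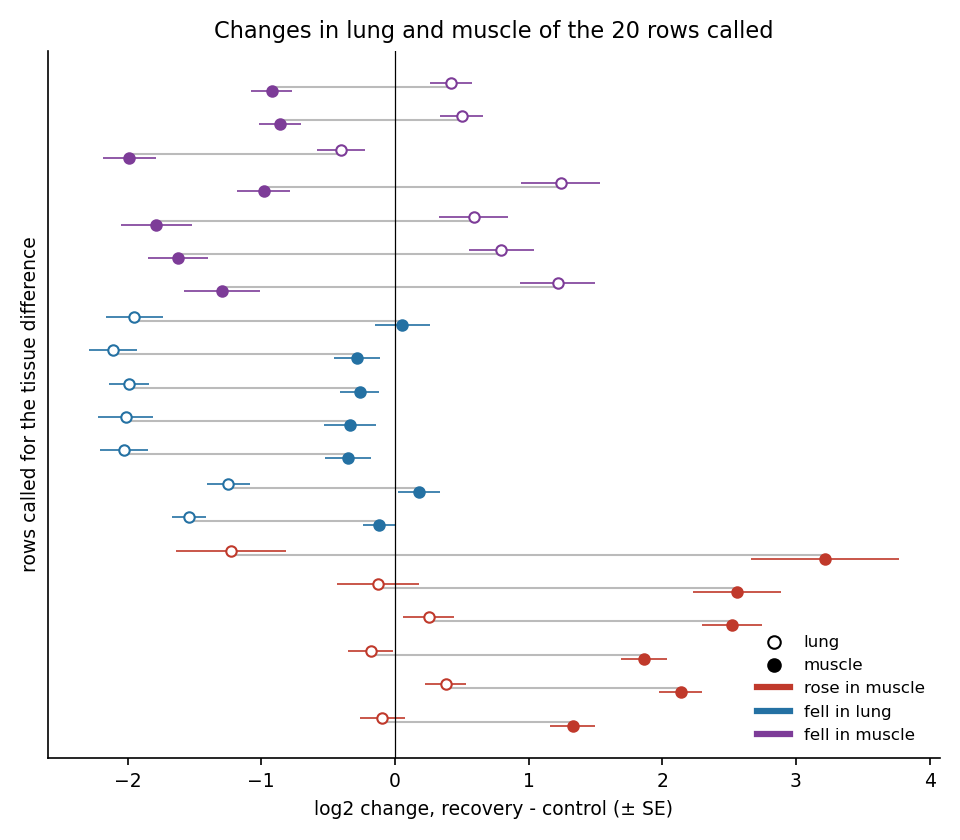
Log2 change from control to recovery, with its standard error, in lung (open points) and muscle (filled points) for each of the 20 rows called, 1 row of the table per line and coloured by pattern. The gap between the open and the filled point is the tissue difference, which runs from 1.42 to 4.44 in the 13 positive rows and from -2.51 to -1.34 in the 7 negative rows.

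ENSG00000111846 was among the rows that rose in muscle. Its level was 14.3, 14.9 and 12.1 CPM in muscle controls 1 to 3, 31.9, 28.7 and 13.6 CPM in the muscle heat libraries, and 50.5, 55.8 and 43.9 CPM in the muscle recovery libraries. In lung it was 31.2, 38.8 and 33.8 CPM in control, 41.4, 40.5 and 35.7 CPM at heat and 34.6, 31.3 and 25.6 CPM at recovery. Muscle recovery thus lay wholly above muscle control, from a lower to a higher level than lung, and the lung groups overlapped. The muscle change was 1.86 (SE 0.17, 3.64-fold, adjusted p = 0.000485), the lung change -0.18 (SE 0.17, adjusted p = 0.718), and the tissue difference 2.05 (SE 0.24, adjusted p = 0.0103) in edgeR's quasi-likelihood fit (Benjamini-Hochberg adjusted). Without lung recovery 1 the difference was 2.15 (adjusted p = 0.0552) and without lung recovery 3 it was 1.93 (adjusted p = 0.0564) in the same edgeR test. Without lung control 3 it was 2.06 (edgeR adjusted p = 0.0105).

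ENSG00000110172 was among the rows that fell in lung. The lung controls held 236, 231 and 281 CPM, the lung heat libraries 179, 423 and 322 CPM, and the lung recovery libraries 62.2, 61.9 and 64.0 CPM. In muscle the values were 409, 550 and 475 CPM in control, 300, 655 and 721 CPM at heat, and 416, 410 and 369 CPM at recovery. The 3 lung recovery values lay close together and far below every lung control, whereas muscle recovery overlapped muscle control. Heat library 1 was the lowest of its group in both tissues. The lung change was -1.99 (SE 0.15, adjusted p = 0.000179), the muscle change -0.26 (adjusted p = 0.303) and the difference 1.73 (SE 0.21, adjusted p = 0.0103) in edgeR with Benjamini-Hochberg adjustment. The difference was 1.72 without lung recovery 1 (adjusted p = 0.0552), 1.74 without lung recovery 3 (adjusted p = 0.0592) and 1.63 without lung control 3 (adjusted p = 0.0105) by edgeR.

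Both identifiers given for the negative direction fell in muscle. ENSG00000188322 was mainly a muscle row, at 274, 161 and 132 CPM in muscle control, 124, 127 and 96.9 CPM at heat and 62.0, 60.0 and 62.5 CPM at recovery. In lung it stood at 2.56, 3.14 and 2.83 CPM in control, 3.02, 2.86 and 2.67 CPM at heat and 5.27, 4.75 and 4.82 CPM at recovery. Recovery thus lay below control in every muscle library and above control in every lung library. The muscle change was -1.62 (adjusted p = 0.00606) and the lung change 0.80, which did not pass (adjusted p = 0.167), with a difference of -2.42 (SE 0.33, adjusted p = 0.0166) by edgeR's test with Benjamini-Hochberg adjustment. The adjusted p of the difference was 0.0586 without lung recovery 1, 0.0592 without lung recovery 3, 0.0697 without muscle recovery 1, 0.0582 without muscle recovery 3 and 0.026 without lung control 3 (edgeR).

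ENSG00000184545 held 14.4, 15.7 and 15.3 CPM in muscle control, 3.6, 5.64 and 3.96 CPM at heat and 3.90, 3.74 and 5.54 CPM at recovery. Its lung values were 6.26, 3.67 and 5.0 CPM in control, 4.85, 2.82 and 5.27 CPM at heat and 6.46, 7.0 and 9.01 CPM at recovery. Muscle heat and recovery libraries both lay far below the muscle controls, and the lung recovery libraries all lay above the lung controls. The muscle change was -1.78 (adjusted p = 0.008), the lung change 0.59 (adjusted p = 0.363) and the difference -2.37 (SE 0.37, adjusted p = 0.0385) by edgeR with Benjamini-Hochberg adjustment. This call was lost in 10 of the 12 fits that left out 1 library, all but those without lung control 1 or lung control 3, with differences of -2.58 to -2.19 and adjusted p of up to 0.14 over the 12 fits (edgeR).

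The only non-coding RNA called for the tissue difference was ncRNA7603. It had 2.49, 1.83 and 2.18 CPM in muscle control, 15.7, 7.45 and 1.57 CPM at heat and 17.3, 7.75 and 13.4 CPM at recovery. In lung it had 5.49, 6.29 and 4.87 CPM in control, 6.99, 7.29 and 5.24 CPM at heat and 6.08, 5.19 and 4.00 CPM at recovery. All muscle recovery libraries lay above the muscle controls, muscle heat 3 lay below them, and the lung groups overlapped. The muscle change was 2.56 (adjusted p = 0.00408), the lung change -0.13 (adjusted p = 0.906) and the difference 2.68 (SE 0.45, adjusted p = 0.0427) by edgeR with Benjamini-Hochberg adjustment. The call of the difference was lost in 10 of the 12 fits that left out 1 library, all but those without lung control 3 or muscle recovery 2. Over the 12 fits the difference ran from 2.43 to 2.95, with adjusted p of up to 0.17 (edgeR).

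**Figure D3:**
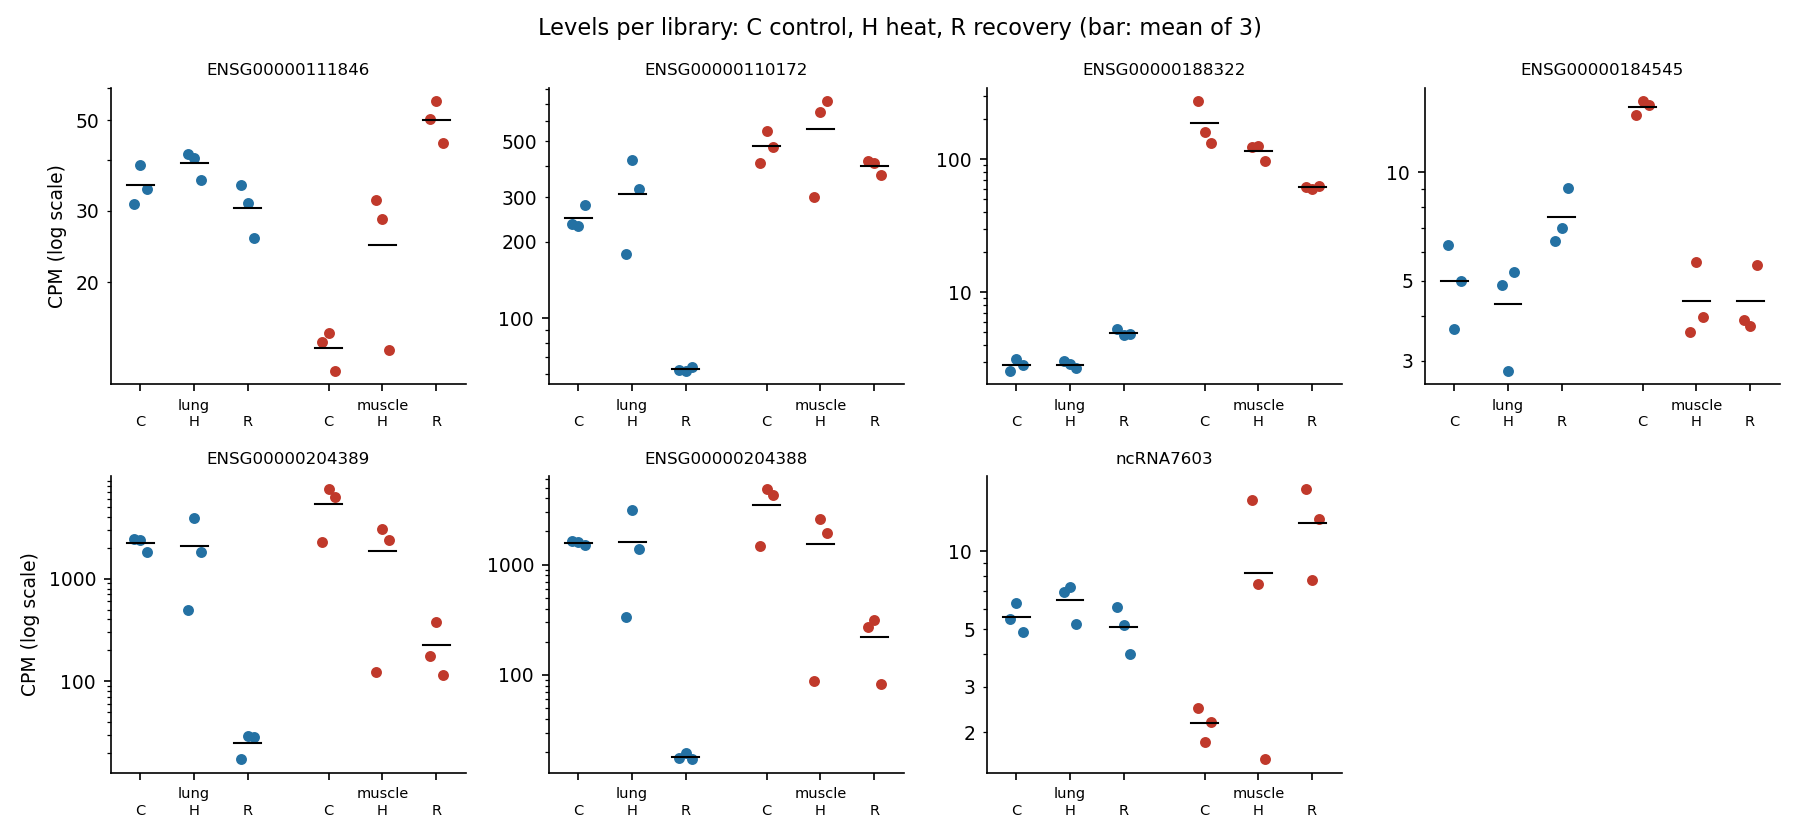
Level in CPM (log scale) in each lung (blue) and muscle (red) library for control (C), heat (H) and recovery (R), with the mean of 3 as a bar, for the 4 identifiers named for the tissue difference, the 2 named for the shared fall, and ncRNA7603. ENSG00000111846 is highest at muscle recovery, ENSG00000110172 is lowest at lung recovery, and ENSG00000204389 is far lower at recovery than in control in both tissues.

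Each tissue's own change was tested in the same fit. In muscle 739 rows (4.91%) were called, of which 363 (2.41%) rose and 376 (2.50%) fell. In lung 28 rows (0.186%) were called, of which 3 (0.0199%) rose and 25 (0.166%) fell. The median standard error of a change was 0.27 in both tissues. Both tissues share an estimate of spread in the joint fit, so this does not show equal precision. The interquartile range of the changes was 0.68 in muscle and 0.47 in lung. With each tissue fitted alone, 122 rows were called in muscle and 18 in lung, and why the counts differ was not tested. A row called in muscle and not in lung is not thereby shown to differ: of the 739 rows called in muscle, 13 were called for the tissue difference. The counts without lung control 3 were 1251 in muscle and 34 in lung. Leaving out muscle recovery 1 left 92 calls in muscle and muscle recovery 2 left 265, muscle control 1 or 2 left 361 or 341, and lung recovery 1, 2 or 3 left 367, 376 or 367. The lung count rose to 288 or 346 without lung control 1 or 2, and dropped to 15, 15 or 11 without lung recovery 1, 2 or 3.

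Rows that rose in muscle more often had a positive lung change than rows in general, though none was called in lung. The lung change was above 0 in 291 of 363 rows that rose in muscle (80.2%), against 54.0% of all rows tested, with a median of 0.24 in lung and 1.06 in muscle. The rows were chosen for their muscle change, so nothing is read from the smaller lung median. Of these rows 0 were called in lung by edgeR, and 65 had a positive lung change at an unadjusted p under 0.05. For the 376 rows that fell in muscle the lung change was below 0 in 220 (58.5%), against 46.0% of all rows, with a median of -0.08 in lung and -1.16 in muscle. Of the 25 rows that fell in lung, 22 had a muscle change below 0, with a median of -0.34 in muscle and -1.75 in lung. Of these 22 rows, 6 were also called as fallen in muscle. Without lung control 3 the muscle change was below 0 in 25 of 32 rows that fell in lung and in 7502 of all 15048 rows. In the fit without lung control 3 the lung change was above 0 in 72.3% of 632 rows that rose in muscle (54.4% of all rows) and below 0 in 49.6% of 619 rows that fell (45.6% of all rows). Across all 15048 rows the lung and muscle changes had a Pearson r of 0.06 and a Spearman rho of 0.15 (0.10 and 0.07 without lung control 3), as a description across rows, which are not independent replicates.

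A separate group of rows had strongly negative lung changes that did not pass the test. In 447 rows (2.97% of those tested) the lung change was below -2, and 10 of these were called. Of the 447 rows, 400 (89.5%) were at least 4-fold higher in lung control 3 than in both other lung controls, 350 were numbered non-coding RNAs, and 320 had a muscle change above 0. Over all 15048 rows tested, 666 were that much higher in lung control 3, 2288 were numbered non-coding RNAs, and the median muscle change was 0.0014. None of the 666 was among the 28 called in lung or the 20 called for the tissue difference, and 2 were among the 739 called in muscle.

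Leaving lung control 3 out changed the mix of rows called for the tissue difference. Of the 73 rows then called (0.485%), 50 carried human identifiers and 23 were non-coding RNAs, against 19 and 1 with all 12 libraries. In 31 of the 73 the level fell in muscle alone, with a median muscle change of -1.11 and a median lung change of 0.50. In 21 it rose in muscle alone (medians 1.49 and -0.60) and in 10 it fell in lung alone (medians -0.03 in muscle and -1.99 in lung). A further 10 rows were called in neither tissue by itself, and 1, ncRNA4847, was called in both in opposite directions, at 0.91 in muscle and -1.69 in lung. In 64 of the 73 rows the muscle and lung changes had opposite signs, while with all 12 libraries 55.9% of all rows tested had the same sign. Choosing rows by a large tissue difference favours opposite signs, so nothing is read from this count.

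Changes shared by both tissues were few. Called rows of the same sign in both tissues numbered 6 (0.0399%), and all 6 fell at recovery. By edgeR 0 rows rose in both (0%) and 0 were called in opposite directions, while at an unadjusted p under 0.05 in both tissues 191 rows were higher in both, 159 lower in both, 38 higher in muscle and lower in lung, and 72 the reverse. DESeq2 called 33 rows as higher in both, 43 as lower in both and 4 in each of the opposite arrangements. In all 6 shared rows recovery lay below control without overlap in both tissues. Such an arrangement was found in 13.1% of all rows tested in muscle and in 9.24% in lung. Since tests of recovery against control called the 6 rows, nothing further is read from it. The muscle changes were -4.56 to -0.53 and the lung changes -6.45 to -1.33, and the fall was larger in lung in 5 of 6 rows. To be shared, a row had to be called in lung, where 28 rows were called against 739 in muscle. This choice favours large lung changes, so nothing is read from the 5 of 6. None of the 6 was called for a tissue difference (adjusted p 0.0927 to 0.828, edgeR with Benjamini-Hochberg adjustment), which does not show equal falls. Without lung control 3 all 6 were still called and 9 rows were shared, while without any one of the lung recovery libraries 2 remained. Leaving out lung control 1 or 2 gave 11 or 17 shared rows, of which 3 and 4 rose, and leaving out muscle recovery 1 or 2 gave 4. With the heat libraries in the fit 28 rows were shared, 16 that rose and 12 that fell, with 3 of the 6 still among them. A mean of at least 5 CPM in each tissue gave 12 shared rows, 3 of which rose.

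ENSG00000204389 and ENSG00000204388 led the shared fall. ENSG00000204389 had 2421, 2359 and 1809 CPM in lung control, 496, 3910 and 1815 CPM at lung heat, and 17.5, 29.5 and 28.5 CPM at lung recovery. In muscle it had 2271, 7359 and 6259 CPM in control, 123, 3050 and 2363 CPM at heat and 177, 380 and 115 CPM at recovery. The row was thus abundant in every control library of both tissues, and every recovery library lay below every control library. The lung change was -6.45 (SE 0.57, 87.3-fold lower, adjusted p = 0.000196), the muscle change -4.56 (SE 0.52, 23.6-fold lower, adjusted p = 0.00217) and the difference 1.89 (SE 0.65, adjusted p = 0.188) by edgeR with Benjamini-Hochberg adjustment. Heat library 1 held the lowest value of the 3 heat libraries in both tissues. The same was seen in 6 of the 6 shared rows and in 14.4% of all rows tested. High control and low recovery levels are given here as the libraries are labelled.

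ENSG00000204388 fell by nearly the same amount in lung and by less in muscle. Lung libraries held 1653, 1593 and 1503 CPM in control, 333, 3143 and 1373 CPM at heat and 17.8, 19.6 and 17.2 CPM at recovery, and muscle libraries 1463, 4800 and 4246 CPM in control, 88.1, 2609 and 1916 CPM at heat and 271, 312 and 83.5 CPM at recovery. Its lung change was -6.44 (adjusted p = 0.000196), its muscle change -3.98 (adjusted p = 0.00396) and the difference 2.46 (SE 0.64, adjusted p = 0.123) in the same edgeR test. The files do not say whether these rows share reads, so the split of counts between them is uncertain. Both rows were called in both tissues without lung control 3, and also when each of the other libraries was left out in turn.

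Numbered non-coding RNAs made up a share of the muscle calls close to that of all rows. Of 2288 tested, 112 were called in muscle (4.90%), 75 that rose and 37 that fell, and 0 were called in lung by edgeR (594 at an unadjusted p under 0.05, and 191 by DESeq2). The fit without lung control 3 called 194 in muscle (8.48%) and 3 in lung, against 1251 and 34 of all 15048 rows. For the tissue difference 1 was called, 526 had an unadjusted p under 0.05 and DESeq2 called 145. Over all 15048 rows, 1940 had an unadjusted edgeR p under 0.05 in lung and 2406 for the tissue difference. DESeq2 called 500 and 605 of them. The largest muscle rise was that of ncRNA5319, at 1.22, 1.24 and 1.17 CPM in muscle control, 12.1, 12.6 and 13.6 CPM at heat and 41.2, 10.7 and 13.2 CPM at recovery. All heat and recovery libraries lay above the controls, and recovery 1 was well above the others. Its muscle change was 4.16 (adjusted p = 0.0038) and its lung change 0.90 (adjusted p = 0.47), but the difference of 3.26 did not pass (adjusted p = 0.0927) by edgeR with Benjamini-Hochberg adjustment. The next largest rise was that of ncRNA5317, with a muscle change of 4.10 (adjusted p = 0.00924) and a lung change of 0.71 (adjusted p = 0.673) in edgeR. Without muscle recovery 1 the muscle changes were 3.29 for ncRNA5319 and 3.35 for ncRNA5317, both still called, and their order turned. Without lung control 3 the tissue differences were 3.40 and 3.67 (edgeR adjusted p = 0.0568 and 0.0637).

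Among the non-coding rows that fell in muscle, the largest change was that of ncRNA4710, at -3.46 (edgeR adjusted p = 0.03), with 7.74, 2.15 and 25.3 CPM in muscle control and 0.503, 0.989 and 1.69 CPM at recovery. The high value of muscle control 3 weighed on it: without that library the change was -2.24 and no longer called (adjusted p = 0.0769, edgeR). The call was also lost without muscle recovery 1 (-3.13) and without muscle recovery 2 (-3.43). The next, ncRNA10216, had 22.8, 40.8 and 96.6 CPM in muscle control, 15.1, 23.9 and 26.2 CPM at heat and 8.31, 9.07 and 6.91 CPM at recovery. It fell by 2.72 on the log2 scale in muscle (adjusted p = 0.00924) against a lung change of -0.38 (adjusted p = 0.76) in edgeR. Without muscle control 3 its muscle change was -2.01 and still called, and with each tissue fitted alone the call was lost (edgeR adjusted p = 0.0508). Leaving out lung control 3 gave lung changes of 0.19 for ncRNA4710 and -0.51 for ncRNA10216.

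Several of the non-coding rows called in muscle carried neighbouring numbers, which was looked for after the values were seen. A run was built from at least 3 rows called in muscle, at most 3 numbers apart, and begins and ends at a called row. The share of called rows within a run therefore follows largely from the search, and nothing is read from it. Of all non-coding rows tested, 4.90% were called in muscle. Rows ncRNA5030 to ncRNA5032 rose in 3 of 3 rows, by 1.70 to 1.97, against lung changes of 0.18 to 0.52. Rows ncRNA5316 to ncRNA5320 rose in 4 of 4 tested rows, by 2.27 to 4.16, against lung changes of 0.59 to 0.98. From ncRNA10214 to ncRNA10219 the level fell in 5 of 6 tested rows, with muscle changes of -2.72 to -1.62 against lung changes of -0.50 to -0.31. No row of these runs was called in lung or for the tissue difference, whose adjusted p ran from 0.0639 to 0.38 in edgeR. In the fit without lung control 3, ncRNA5316 was called for the difference (3.20, edgeR adjusted p = 0.0486). Whether neighbouring numbers mean neighbouring or overlapping transcripts is not stated in the sources used here.

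**Figure D4:**
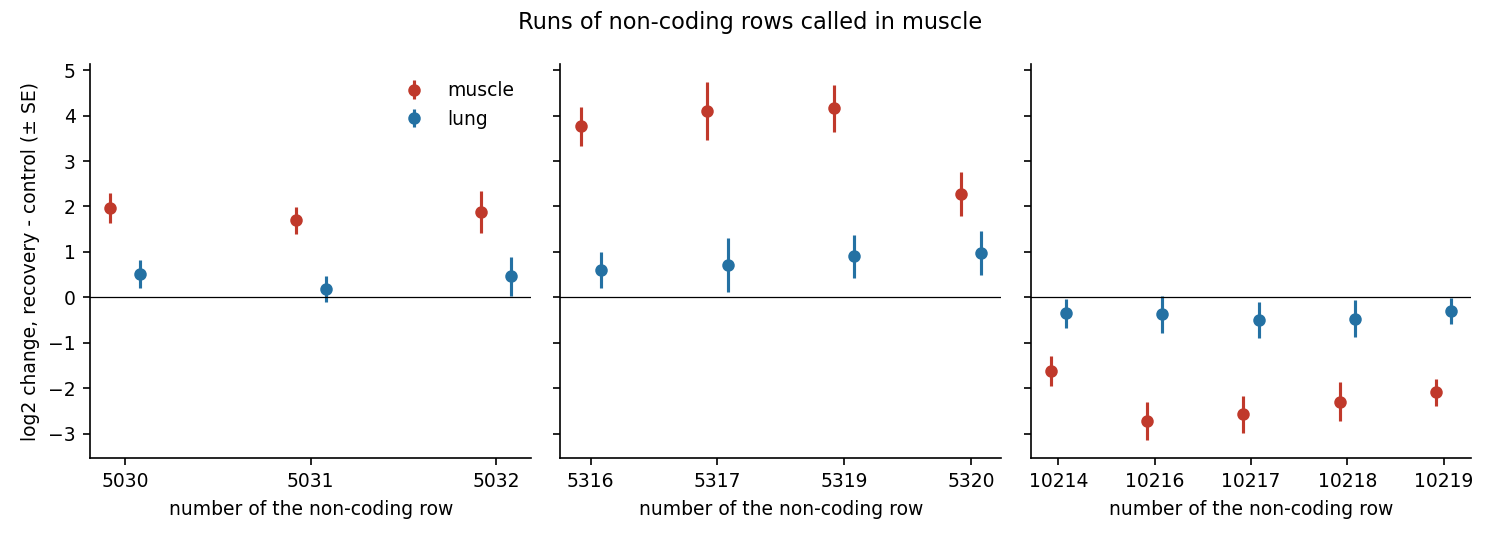
Log2 change from control to recovery, with its standard error, in muscle (red) and lung (blue) for the non-coding rows called in muscle that carry neighbouring numbers. Within each run the muscle points lie on one side of 0 and the lung points lie on the same side, closer to 0.

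Antisense rows, transcribed from the strand opposite a gene, were called in muscle at 5.83%, against 4.91% of all rows. Of 103 tested, 5 rose and 1 fell in muscle, with changes of -2.56 to 1.73. By edgeR 0 were called in lung (14 at an unadjusted p under 0.05, 3 by DESeq2) and 0 for the tissue difference (12 at an unadjusted p under 0.05, 1 by DESeq2). In the fit without lung control 3, 8 rose and 3 fell in muscle (10.7%), where 1251 of all 15048 rows were called. For 73 antisense rows the sense row was also tested, and the change had the same sign in 59 of 73 in muscle and in 54 of 73 in lung. The strand setting of the counting is not stated, so reads of a sense and antisense pair cannot be told apart.

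Gene names were to be had for 79 tested rows with mouse identifiers, 38 of them at a mean of 5 CPM or more in at least 1 group. By edgeR 0 of the 80 mouse-identifier rows were called for the tissue difference (9 at an unadjusted p under 0.05, 4 by DESeq2), 1 in muscle and 0 in lung (19 at an unadjusted p under 0.05, 3 by DESeq2). The rows below are those with the smallest p in each direction among the 38, and none of them passed the test. Choosing rows by smallest p favours recovery libraries that do not overlap the controls. Where such an arrangement is given for these rows, it is a description only, and nothing is read from it.

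Nol6, a nucleolar protein of the small ribosomal subunit's assembly, came nearest among these 38. Its level was 22.0, 20.7 and 22.9 CPM in muscle control and 13.3, 18.9 and 18 CPM at recovery. In lung it was 10.6, 11.1 and 7.90 CPM in the controls and 15.3, 15.7 and 14.1 CPM at recovery. Recovery lay below control in every muscle library and above control in every lung library. The muscle change was -0.38, the lung change 0.60 and the difference -0.99 (SE 0.27, adjusted p = 0.135) by edgeR with Benjamini-Hochberg adjustment, and DESeq2 called it. Leaving out lung control 3 gave -0.85 (edgeR adjusted p = 0.126).

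Cmah, the hydroxylase that makes N-glycolylneuraminic acid, held 2.65, 3.98 and 0.746 CPM in muscle control and 6.86, 6.65 and 5.80 CPM at recovery, and 9.53, 8.64 and 8.62 CPM in lung control and 11.9, 14.5 and 11.4 CPM at lung recovery. For Cmah the control and recovery groups did not overlap in either tissue, from which nothing is read, as stated above. Its change was 1.40 in muscle (adjusted p = 0.0767) and 0.49 in lung (adjusted p = 0.659), with a difference of 0.90 (adjusted p = 0.467) by edgeR, and of 0.93 without lung control 3. The muscle change was called by DESeq2, with the heat libraries in the fit, and without muscle control 2. Smpd5, a sphingomyelin phosphodiesterase gene, differed by -0.82 (adjusted p = 0.376), Gm266 by -1.3 (adjusted p = 0.396) and BC048679 by -1.02 (adjusted p = 0.399) in the same edgeR test. For Fer1l4 the difference was -3.64 (SE 1.67, edgeR adjusted p = 0.31), but muscle control 3 held 32.9 CPM against 3.15 and 0.457 CPM in the other muscle controls. Leaving out lung control 3 gave differences of -0.94 for Smpd5, -1.13 for Gm266, -0.79 for BC048679 and -3.41 for Fer1l4.

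For 4 further rows with positive differences, lung control 3 was far above the other lung controls. Gm20721 had 160 CPM there against 41.7 and 34 CPM in the other lung controls, and Cyp2t4, a cytochrome P450 gene, had 21.9 against 2.56 and 2.03 CPM. Ahsa2, a homolog of the activator of the HSP90 ATPase, had 20.5 against 4.78 and 5.05 CPM, and Gm26566 had 15.5 against 1.08 and 1.15 CPM. With all libraries the differences were 1.54, 1.82, 1.12 and 1.72, with edgeR adjusted p of 0.27, 0.425, 0.508 and 0.526. Without lung control 3 they were 0.49, -0.10, 0.10 and -0.66, so that the direction of Cyp2t4 and Gm26566 turned.

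The named rows that moved alike in both tissues did not pass either. Rbak, a zinc finger protein that binds the retinoblastoma protein, was the steadiest, at 103, 114 and 117 CPM in muscle control and 145, 149 and 154 CPM at recovery. In lung it held 48.8, 53.6 and 40.6 CPM in the controls and 55.9, 54.9 and 63.6 CPM at recovery. Recovery lay above control in every library of both tissues, with changes of 0.42 in muscle (adjusted p = 0.0978) and 0.28 in lung (adjusted p = 0.416) by edgeR. Without lung control 3 the muscle change of 0.42 passed (edgeR adjusted p = 0.0447), and DESeq2 and the fit with the heat libraries also called it. Akap17b, Zfp954 and Zfp184 were also higher in both tissues, by 0.27 to 0.74 in muscle and 0.27 to 0.55 in lung. The lung changes without lung control 3 were 0.58 for Akap17b, 0.16 for Zfp954 and 0.04 for Zfp184.

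Fbxw17, an F-box protein gene, was lower in both. It held 10.5, 16.8 and 15.2 CPM in muscle control and 6.86, 8.19 and 2.80 CPM at recovery, and 15, 21.8 and 17.6 CPM in lung control and 10.6, 13.2 and 9.04 CPM at recovery. No recovery library reached the controls in either tissue, with changes of -1.25 in muscle (adjusted p = 0.0593) and -0.72 in lung (adjusted p = 0.391) by edgeR. The muscle change was called by DESeq2, with a mean of at least 5 CPM in each tissue, with the heat libraries in the fit, and with the replicate number as a block. The histone gene Hist1h2af, E130116L18Rik, Gm6034 and Gm19684 had changes of -1.22 to -1.0 in muscle and -1.89 to -1.33 in lung, and in each of these 4 rows lung control 3 was the highest lung control. Without it the lung change of Fbxw17 was -0.75, and those of the 4 rows were -0.77 for Hist1h2af, -0.52 for E130116L18Rik, -0.03 for Gm6034 and -0.16 for Gm19684.

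**Figure D5:**
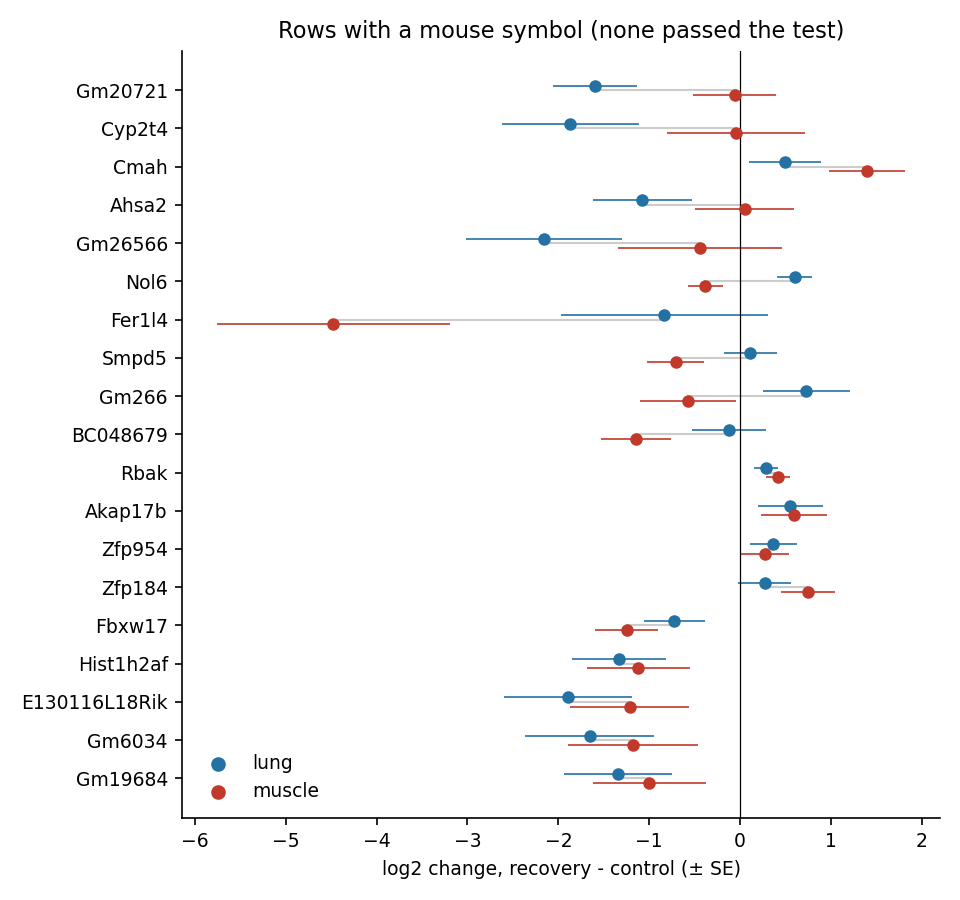
Log2 change from control to recovery, with its standard error, in lung (blue) and muscle (red) for the named mouse-identifier rows, none of which passed the test. The wide lung error bars of Gm20721, Cyp2t4, Ahsa2 and Gm26566 go with high values in lung control 3, and that of Fer1l4 in muscle with a high value in muscle control 3.

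The mouse-identifier row called in muscle was Traj15, a joining segment of the T cell receptor alpha locus, which lay under the level set for naming. It had 0.221, 0.326 and 0.266 CPM in muscle control and 0.755, 1.15 and 1.3 CPM at recovery, and 2.78, 2.73 and 2.11 CPM in lung control and 1.45, 2.61 and 1.75 CPM at lung recovery. The muscle change was 1.97 (adjusted p = 0.0338) and the tissue difference 2.36 did not pass (adjusted p = 0.123) by edgeR, at 2.47 (adjusted p = 0.0683) without lung control 3. The muscle call was lost in 8 of the 12 fits that left out 1 library, with changes of 1.79 to 2.15. The row named for KDR, the endothelial receptor of vascular growth factor, held 85.7, 101 and 96.5 CPM in muscle control and 57.1, 78.5 and 63.7 CPM at recovery, with a muscle change of -0.51 (adjusted p = 0.0887), a lung change of 0.11 and a difference of -0.62 (adjusted p = 0.214) in edgeR, or -0.59 without lung control 3. No other endothelial marker could be matched, and the share of endothelial cells was not tested.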

How the data were processed

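Bulk RNA sequencing of bat lung and muscle was used. Per the labels' protocols, TRIzol was used for total RNA and the NEBNext Ultra Directional kit for the libraries. The authors deposited raw read counts per row, with 1 column per library and no normalization. The aligner was STAR 2.7 and the counter featureCounts (version not given in the sources used here), per the submitters' processing notes. The notes list only the mouse build GRCm39, and neither the bat assembly nor the strand setting is given in the sources used here, so no position or sequence is printed.

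Rows passing filterByExpr (minimum count 10, minimum total 15) in lung and in muscle separately were scaled by TMM and fitted jointly over 12 libraries with edgeR 4.0.16 (R 4.3.3, robust quasi-likelihood test, 1 mean per group). Benjamini-Hochberg adjustment ran over all rows tested. CPM values were scaled over the 18 lung and muscle libraries, heat included. The labels do not say whether lung and muscle libraries, or replicates, come from separate animals, so p-values measure the spread between these libraries, which may be technical. Among the 12 libraries, none was a copy of another replicate of its own group: differences exceeded counting error at least 26.6-fold. Precision is limited by 3 libraries per group.

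Rows to name were the 10 largest called differences per direction, and the 10 largest shared changes, among rows with a symbol and at least 5 CPM in a group, filled to 5 per direction by smallest p where fewer passed. As 0 rows with a symbol passed, the 2 identifiers with the smallest p per direction were added, and likewise the non-coding rows. Symbols came from a mouse annotation (758 of 762 identifiers matched). The members and lists were chosen with earlier results of these data known. The fit was tested on simulated counts. Alternatives used DESeq2 1.42.0, limma 3.58.1, other scalings and filters, a replicate block and each library left out.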

Additional observations from a re-analysis of the deposited data

Results flagged for a closer look

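The recovery change differed between muscle and lung, by a test of the difference itself, in 20 rows. Those named were ENSG00000111846 (tissue difference 2.05 on the log2 scale), ENSG00000110172 (1.73), ENSG00000188322 (-2.42), ENSG00000184545 (-2.37) and ncRNA7603 (2.68), each with edgeR's adjusted p in the report.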

How the results depend on the processing

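The tissue difference was called in 20 rows with all 12 libraries and in 605 by DESeq2, 122 by limma-voom with library weights and 291 with the heat libraries in the fit. Muscle calls (739) numbered 1776 by DESeq2, 431 without a filter, 1300 with heat libraries and 122 with each tissue fitted alone; lung calls (28) numbered 500, 353 and 18 by DESeq2, with heat libraries and alone; shared calls (6) numbered 76 by DESeq2, 12 with a mean of at least 5 CPM in each tissue and 28 with heat libraries. Leaving out 1 library gave 0 to 73 rows for the difference, 92 to 1251 in muscle, 11 to 346 in lung and 2 to 17 shared. The difference fell by over 1.5 times without lung control 2 (9), lung recovery 1 (0), 2 (8) or 3 (0), muscle control 2 (12), muscle recovery 1 (7) or 3 (6). Muscle calls did so without any lung recovery library (367, 376 and 367), muscle controls 1 and 2 (361 and 341) and muscle recovery 1 and 2 (92 and 265). Lung calls stood at 15, 15 and 11 without lung recovery 1, 2 and 3, and shared calls at 11 and 17 without lung control 1 and 2. The cause was not tested.

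With the replicate number as a block the difference was called in 14 rows, and in 0 rows with each condition and number as a block, as if equal numbers of lung and muscle were 1 animal (smallest adjusted p 0.0658 by edgeR, 2544 rows at an unadjusted p under 0.05). The pairing could not be settled: same-numbered lung and muscle libraries correlated at 0.0852 to 0.281 in their deviations from group means, other pairs at -0.170 to 0.0182, and all 6 lung and all 6 muscle libraries correlated best with their own number, a hint from the data and not the design. Other scalings and the remaining filters kept the counts within 1.5 times. Of 896 values of 45 results for named rows, 828 kept direction and side of the threshold, 53 lost the call, 11 gained it and 4 reversed: Cyp2t4 (-0.10 by limma-voom and -0.10 without lung control 3) and Gm26566 (-0.38 and -0.66). Over the fits that left out 1 library their differences ran from -0.10 to 2.30 and from -0.66 to 2.24. Most of the 45 results were not called with all 12 libraries, so they had no call to lose. The called tissue difference was lost in 3 of 21 settings for ENSG00000111846 and 3 of 21 for ENSG00000110172. For ENSG00000188322 it was lost in 5 of 20, for ENSG00000184545 in 12 of 21 and for ncRNA7603 in 15 of 21. The 3 libraries per group limit the precision, and lung libraries were the shallower (from 9.29 M counts).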
